A study of Mus musculus with 22 samples.

Results

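The genes described here are 59 that cells use to copy their DNA and to divide, 29 with a peak in S phase and 30 with a peak in the G2 and M phases of the cell cycle. They were taken by symbol from the 49671 genes in the count table, and all 59 were found. The list goes by symbol and not by a cut on values, but it was chosen with earlier results of these data known. The libraries came from wild-type mouse TH2 cells, the T helper cells of the type 2 cytokine programme, at day 5 of polarization in culture. The donors were Balb/c mice of both sexes aged 6 to 8 weeks from lines bred on feed with 400, 1000 or 4000 IU of vitamin D3 per kg. There were 11 libraries of cells that had been given 100 nM calcitriol, the vitamin D hormone itself, for the last 24 hours, and 11 of cells given 2% ethanol as vehicle. How many separate cultures or mice stand behind the 11 libraries of a group is not in the labels. Whether the cells with calcitriol received the same ethanol, and which mouse, sex or diet gave a library, is not in the labels, so none of these entered a test. Replicate numbers only name libraries and tie no calcitriol library to a vehicle library. The p-values rest on how much these libraries differ from one another, and some of that may be technical.

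A dividing cell first loads the MCM helicase onto its origins of replication, with the help of Cdc6 and Cdt1, and then fires these origins with Cdc45 and the GINS complex, after which polymerases held by the PCNA clamp copy the strands. Entry into this phase is set by D-type and E-type cyclins, which free the E2F factors from the retinoblastoma family of pocket proteins. Mitosis follows under cyclin B and Cdk1, with kinases, motor proteins and the anaphase-promoting complex parting the chromosomes, and activated T helper cells go through many such rounds before they rest.

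Total counts ran from 3214171 to 20258430 per library with a median of 7504710, and the members held between 0.599% and 1.03% of them. Levels are given in CPM, which here are counts per library size after TMM scaling. Vehicle replicates 1 and 2 and calcitriol replicates 1 and 2 stand apart from the rest of their groups. This is on the second principal component of the 500 most variable genes, where they lie between -16.8 and -12.4. Vehicle replicates 4 and 3 come next, at -6.56 and -6.50. Counts of calls without the 4 libraries that stand apart are given where they differ. The 11 markers of T helper and TH2 cells summed to between 2276 and 2726 CPM in vehicle and between 2340 and 2548 CPM in calcitriol libraries. Of the 10 that were tested, Cd3d, Cd3e and Cd3g rose (adjusted p of up to 0.0353 by edgeR), whereas Cd4 fell from a mean of 755 to 690 CPM and Il13 from 333.5 to 203 CPM (adjusted p = 0.0153 and 0.0204 by edgeR). Gata3, at means of 86.5 and 97.2 CPM, and Il4, at 86.8 and 96.7 CPM, did not pass, and Il1rl1, the receptor of many TH2 cells, was near absent at 0.765 and 0.769 CPM. Of the CD8 genes, Cd8a averaged 0.0650 and 0.0442 CPM and Cd8b1 5.98 and 5.65 CPM, with a sum of at most 9.53 CPM in any library. Summed markers of B cells stayed at or below 16.2 CPM, of macrophages and monocytes at or below 12.9 CPM and of dendritic cells at or below 10.4 CPM in every library. The 5 NK cell markers summed to between 2.40 and 28.52 CPM in vehicle and between 25.8 and 166 CPM in calcitriol libraries, a difference carried by the granzyme gene Gzma (8.80 and 77.8 CPM on average), while Ncr1 was at 0 in all 22 libraries. Granulocyte and mast cell markers summed to between 0.0964 and 1.13 CPM in vehicle and between 1.62 and 4.06 CPM in calcitriol libraries, through Ly6g (0.191 and 2.16 CPM on average), with S100a9 at 0. Erythroid markers summed to at most 0.695 CPM, with Hba-a1 and Alas2 at 0. The part of these genes in the results was not tested.

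Most genes of DNA replication and mitosis did not pass the test after 24 hours of calcitriol. Of the 59 members, all of which passed the filter on low counts, 1 rose, the clamp loader subunit Rfc3, and 4 fell, the GINS subunit Gins2 and the mitotic genes Kif23, Cdca8 and Ttk (edgeR quasi-likelihood test, adjusted p under 0.05 over 11905 genes). Over all genes tested, 31.5% passed, 16.1% higher and 15.5% lower. The 5 calls among 59 members are a smaller share than that background, and the 4 members that fell are also a smaller share than the 15.5% of genes that fell. The members' changes ran from -0.30 to 0.22 on the log2 scale of calcitriol over vehicle. Of the 59, 45 (76.3%) were below 0, against 52.15% of all genes. Members rose and fell together from library to library, as described below, so these signs are not independent of one another. The median change was -0.05 for the 29 S phase members and -0.07 for the 30 G2 and M members, against -0.01 for all genes. The negative median of the S phase members turned to 0.02 with library quality weights, and it ran from -0.08 to 0.01 as each library was left out. In 58 of the 59 members the 95% interval of the change lay within 0.5 on the log2 scale in either direction, compared with 69.9% of all genes. The exception was the GINS subunit Gins1, with an upper bound of 0.557. No member had calcitriol values wholly apart from the vehicle values, as 4.36% of all genes had. In bulk RNA such as this, fewer cells in a phase and less RNA per cell cannot be told apart.

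**Figure D1:**
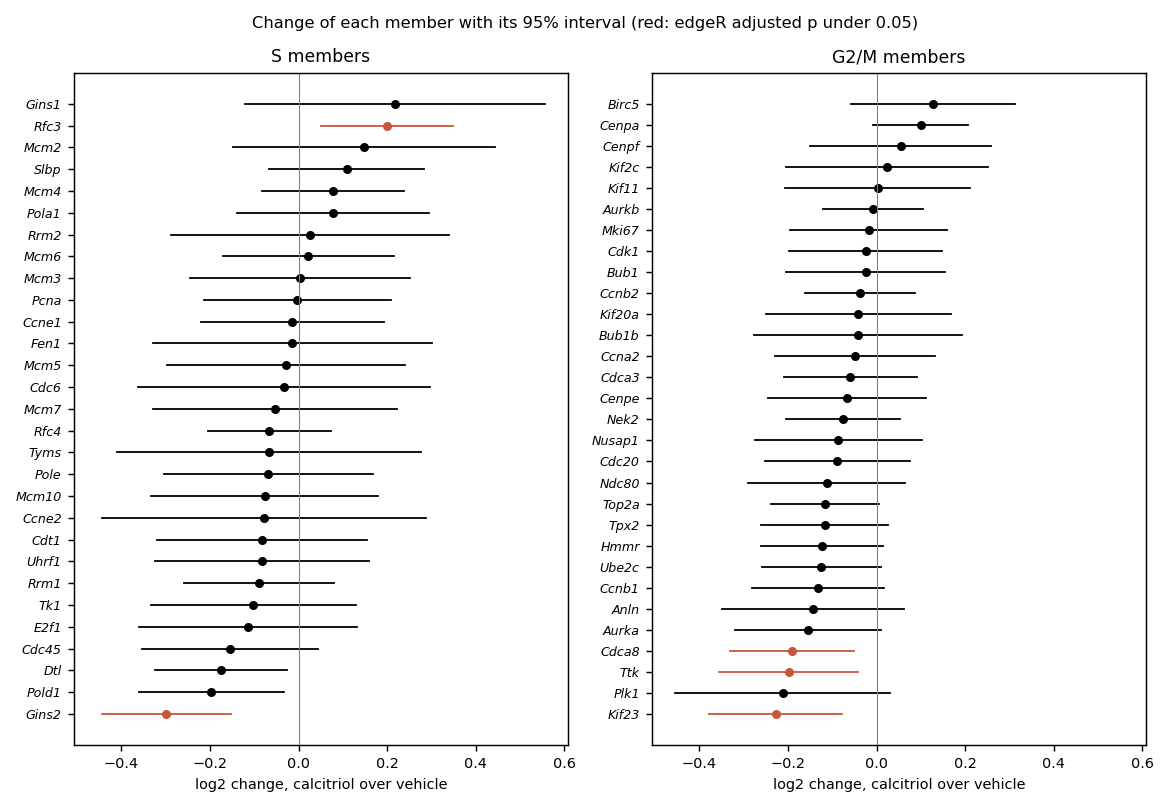
Change of each of the 59 members as log2 of calcitriol over vehicle (x axis) with its 95% interval (bars), S phase members at left and G2 and M members at right, ordered by size. The 5 members in red passed the edgeR test, 1 higher and 4 lower, and 58 of 59 intervals end within 0.5 of 0.

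Among the 12 genes that license and unwind origins, 1 fell and 11 did not pass. Gins2 (chromosome 8, 120578633 to 120589304, minus strand, GRCm38), a subunit of the GINS complex of the active helicase, ran from 32.1 to 45.8 CPM with a median of 37.6 in vehicle libraries and from 24.7 to 36.4 CPM with a median of 30.9 in calcitriol libraries. All 11 calcitriol libraries lay below the vehicle median and 7 lay below every vehicle library, the rest overlapping. Its log2 change was -0.30 ± 0.07 (SE, adjusted p = 0.00172 by edgeR), and the call held in all 34 alternative settings, with a highest adjusted p of 0.0348 when libraries that resemble one another were summed. Gins1, a second subunit of the same complex, had the largest positive change of the S phase members, yet its spread was among the widest. Its values ran from 9.21 to 23.8 CPM in vehicle (median 13.6) and from 8.56 to 23.9 CPM in calcitriol libraries (median 14.8), and the groups overlapped over nearly their whole range. Its change was 0.22 ± 0.16 (adjusted p = 0.348 by edgeR). Reads of Gins2 could in part stem from Gse1, which overlaps it on the opposite strand with 1747 counts over all libraries beside 6629 for Gins2, since the strand setting of the counting is not given. Mcm7, Cdc45, Rfc4, Fen1, Tk1, Ccne2, Ccna2, Cdc20, Kif20a and Nusap1 likewise overlap expressed genes of the opposite strand.

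The MCM helicase subunits, which form the ring that unwinds DNA, differed in level, with vehicle means from 22.5 CPM per kb of exon for Mcm2 to 101.5 CPM per kb for Mcm6. Mcm2 ran from 111 to 223 CPM in vehicle (median 156) and from 116 to 233 CPM in calcitriol libraries (median 174). These ranges coincide but for 1 calcitriol library above the highest vehicle value, and the change was 0.15 ± 0.14 (adjusted p = 0.480 by edgeR). Mcm3, Mcm4, Mcm5, Mcm6 and Mcm7 had changes between -0.05 and 0.08, none of which passed. The loading factors Cdc6 and Cdt1, at medians of 55.9 and 14.4 CPM in vehicle and 60.7 and 15.1 CPM in calcitriol libraries, did not pass either. The initiation factors Mcm10 and Cdc45 had changes of -0.08 and -0.15 and also missed the threshold.

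Of the 7 polymerase, clamp and flap-processing genes, 1 rose and 6 did not pass. Rfc3 (chromosome 5, 151642756 to 151651242, minus strand), a subunit of the clamp loader that places PCNA on DNA, ran from 81.1 to 97.9 CPM with a median of 89.9 in vehicle libraries and from 81.9 to 139 CPM with a median of 99.7 in calcitriol libraries. The groups overlapped, with 7 calcitriol libraries above every vehicle library, and the highest values, 139 and 130 CPM, were those of calcitriol replicates 1 and 2, libraries that stand apart. Its change was 0.20 ± 0.07 (adjusted p = 0.0360 by edgeR). Without the 4 libraries that stand apart it was 0.12 (adjusted p = 0.0973). The call was also lost when calcitriol replicate 1, 2 or 4 or vehicle replicate 3, 7, 8 or 10 was left out (adjusted p from 0.0505 to 0.0739). In all it was lost in 11 of 34 alternative settings. The highest adjusted p were 0.173 with total count scaling and 0.131 with sets of libraries summed (edgeR). Pold1, the catalytic subunit of polymerase delta, ran from 113 to 170 CPM in vehicle (median 142) and from 92.6 to 149 CPM in calcitriol libraries (median 133). An overlap remained, with 4 calcitriol libraries below every vehicle library, and the change of -0.20 ± 0.08 had an adjusted p of 0.0605 by edgeR. It passed in 6 of 34 alternative settings. Among them were leaving out calcitriol replicate 5 or 6 or vehicle replicate 2 or 4 (adjusted p from 0.0266 to 0.0446 by edgeR). Total count scaling was another (adjusted p = 0.0175 by edgeR).

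The sliding clamp Pcna, per length the second most abundant member at 117 CPM per kb of exon in vehicle, showed no detectable change. It ran from 212 to 365 CPM in vehicle (median 279) and from 199 to 352 CPM in calcitriol libraries (median 288), with ranges that coincide. The change was -0.0028 ± 0.10 (adjusted p = 0.987 by edgeR, 95% interval -0.21 to 0.21), and its sign changed with the setting, as with RLE scaling. The other clamp loader subunit Rfc4, the flap nuclease Fen1 and the polymerase subunits Pola1 and Pole had changes between -0.07 and 0.08 and did not pass.

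The 4 genes that supply nucleotides gave 0 calls. Rrm1 and Rrm2, the large and small subunits of ribonucleotide reductase, had changes of -0.09 and 0.03, thymidylate synthase Tyms -0.07 and thymidine kinase Tk1 -0.10. Tyms spanned the widest range of all 59 members, 2.93-fold between its lowest library, calcitriol replicate 3 at 21.4 CPM, and its highest, vehicle replicate 6 at 62.6 CPM.

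None of the 6 genes placed at the G1 to S transition passed. E2f1, a transcription factor that drives S phase genes, ran from 10.6 to 21.0 CPM in vehicle (median 15.4) and from 9.27 to 18.3 CPM in calcitriol libraries (median 13.8). The groups overlapped, with 1 calcitriol library below every vehicle library, and the change was -0.11 ± 0.12 (adjusted p = 0.519 by edgeR). The E-type cyclins, which with Cdk2 start S phase, overlapped as fully. Ccne1 ran from 23.9 to 45.9 CPM in vehicle (median 33.3) and from 22.2 to 44.2 CPM in calcitriol libraries (median 34.6), with a change of -0.01 ± 0.10 (adjusted p = 0.935 by edgeR). Ccne2 ran from 10.2 to 25.9 CPM in vehicle (median 14.6) and from 9.13 to 24.1 CPM in calcitriol libraries (median 14.3), with a change of -0.08 ± 0.18 (adjusted p = 0.782 by edgeR). Of all members Ccne2 had the largest spread within groups, an SD of 0.44 on the log2 scale, so a change smaller than its interval of -0.44 to 0.29 was not detectable.

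Dtl, which targets the licensing factor Cdt1 for destruction, ran from 38.5 to 56.3 CPM in vehicle (median 44.9) and from 30.2 to 46.8 CPM in calcitriol libraries (median 41.5). In 10 of 11 calcitriol libraries it lay below the vehicle median, although only 2 lay below every vehicle library, and the change was -0.18 ± 0.07 (adjusted p = 0.0661 by edgeR). It passed in 4 of 34 alternative settings. Among them were leaving out calcitriol replicate 7 or vehicle replicate 11 (adjusted p = 0.0438 and 0.0362 by edgeR) and total count scaling (adjusted p = 0.0165 by edgeR). Uhrf1, which carries DNA methylation across replication, and Slbp, which binds histone mRNA, had changes of -0.08 and 0.11 and did not pass.

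Of the 4 mitotic cyclin and Cdk1 genes, 0 passed. Cdk1, the kinase that starts mitosis, ran from 103 to 170 CPM in vehicle (median 127) and from 100.2 to 156 CPM in calcitriol libraries (median 131), almost the same range, with a change of -0.02 ± 0.08 (adjusted p = 0.861 by edgeR). Ccnb1, which encodes its partner cyclin B1, ran from 93.0 to 117 CPM in vehicle (median 103) and from 71.9 to 115 CPM in calcitriol libraries (median 96.0). Values overlapped between groups, with 4 calcitriol libraries below every vehicle library, and the change was -0.13 ± 0.07 (adjusted p = 0.178 by edgeR). Cyclin A2 (Ccna2) and cyclin B2 (Ccnb2) had changes of -0.05 and -0.04.

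Of the 7 kinases of mitosis and its checkpoint, 1 fell and 6 did not pass, and all 7 changes were below 0. Ttk (chromosome 9, 83834689 to 83872389, plus strand), the Mps1 kinase of the spindle checkpoint, ran from 34.7 to 48.2 CPM in vehicle (median 43.9) and from 30.2 to 47.3 CPM in calcitriol libraries (median 36.7). The groups overlapped, with 10 calcitriol libraries below the vehicle median and 4 below every vehicle library. Its change was -0.20 ± 0.08 (adjusted p = 0.0477 by edgeR). This call was lost in 22 of 34 alternative settings, among them leaving out any of calcitriol replicates 1 to 6 and 10 and vehicle replicates 2, 4 to 8, 10 and 11 (adjusted p from 0.0519 to 0.0867). Plk1, a kinase of spindle assembly and cytokinesis, had the second lowest change of the G2 and M members, though it did not pass. It ran from 13.7 to 21.7 CPM in vehicle (median 15.9) and from 9.13 to 19.7 CPM in calcitriol libraries (median 14.7), overlapping, with a change of -0.21 ± 0.12 (adjusted p = 0.185 by edgeR). Aurora A (Aurka), Aurora B (Aurkb), Nek2 and the checkpoint kinases Bub1 and Bub1b had changes between -0.15 and -0.0077. The anaphase-promoting complex genes Cdc20, an activator, and Ube2c, its ubiquitin-conjugating enzyme, had changes of -0.09 and -0.12 and did not pass.

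Of the 5 motor genes 1 fell, Kif23 (chromosome 9, 61915905 to 61946774, minus strand), the kinesin of the central spindle that cytokinesis needs. Vehicle libraries ran from 86.2 to 117 CPM (median 92.9) and calcitriol libraries from 64.9 to 95.5 CPM (median 81.9). The ranges overlapped, with 6 calcitriol libraries below every vehicle library. These 6 are replicates 1 to 4, 10 and 11, and the other 5 calcitriol libraries lay between 87.7 and 95.5 CPM, within the vehicle range. The change was -0.23 ± 0.07 (adjusted p = 0.0175 by edgeR), and of 34 alternative settings it was lost in 1, with sets of libraries summed (-0.23, adjusted p = 0.117). The spindle motors Kif11, Kif20a, Kif2c and Cenpe had changes between -0.07 and 0.02, and the spindle proteins Tpx2, Nusap1 and Hmmr between -0.12 and -0.09, with 0 calls.

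Of the 5 centromere and kinetochore genes 1 fell and 0 rose, and the changes of 3 that did not pass were above 0. Cdca8 (chromosome 4, 124918465 to 124939311, minus strand), the borealin subunit of the chromosomal passenger complex, ran from 63.4 to 82.0 CPM in vehicle (median 73.2) and from 46.9 to 74.2 CPM in calcitriol libraries (median 65.5). The groups overlapped, with 5 calcitriol libraries below every vehicle library, and the change was -0.19 ± 0.07 (adjusted p = 0.0341 by edgeR). This call was lost in 12 of 34 alternative settings. Among them were leaving out any of calcitriol replicates 1 to 4 or vehicle replicates 5 to 9 (adjusted p of up to 0.0620). The highest adjusted p was 0.126 by edgeR, with sets of libraries summed. Birc5, which encodes survivin, another subunit of the passenger complex, ran from 34.6 to 61.1 CPM in vehicle (median 51.1) and from 40.8 to 64.4 CPM in calcitriol libraries (median 53.2). These ranges overlapped almost wholly, and the change was 0.13 ± 0.09 (adjusted p = 0.310 by edgeR), of opposite sign to that of Cdca8. The opposite-strand gene 9930104L06Rik overlaps Cdca8, with 2154 counts over all libraries beside 13082, and could share its reads.

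Cenpa, the histone H3 variant of centromeres, ran from 73.2 to 93.4 CPM in vehicle (median 88.8) and from 80.2 to 104 CPM in calcitriol libraries (median 95.04). Overlap was partial, with 6 calcitriol libraries above every vehicle library, and the change was 0.10 ± 0.05 (adjusted p = 0.158 by edgeR). Cenpa passed in 2 of 34 alternative settings, among them limma-voom with library quality weights (adjusted p = 0.04345). Cenpf, a kinetochore protein, ran from 109 to 163 CPM in vehicle (median 145) and from 107 to 188 CPM in calcitriol libraries (median 148). It overlapped too, with a change of 0.05 ± 0.10 (adjusted p = 0.726 by edgeR). Ndc80, which ties kinetochores to microtubules, had a change of -0.11 and did not pass.

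The proliferation markers that are most used in tissue sections did not pass. Mki67, which encodes the Ki-67 antigen, ran from 740 to 974 CPM in vehicle (median 856) and from 628 to 1062 CPM in calcitriol libraries (median 850). Its calcitriol range was the wider, with 4 libraries below and 3 above every vehicle library, and the change was -0.02 ± 0.09 (adjusted p = 0.903 by edgeR). Top2a, topoisomerase II alpha and per length the most abundant member at 119 CPM per kb of exon in vehicle, ran from 948 to 1240 CPM in vehicle (median 1059) and from 808 to 1168 CPM in calcitriol libraries (median 992). The groups overlapped, with 4 calcitriol libraries below every vehicle library and a change of -0.12 ± 0.06 (adjusted p = 0.146 by edgeR). Top2a passed in 2 of 34 alternative settings, among them total count scaling (adjusted p = 0.0266 by edgeR). Cdca3 and Anln, the latter a scaffold of the cleavage furrow, had changes of -0.06 and -0.14.

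With 4 surrogate variables in the fit, covariates estimated from the counts themselves, the number of calls was larger, as it was for the whole transcriptome. Then 8 S phase members passed, 4 higher and 4 lower, and 13 G2 and M members, 2 higher and 11 lower, while 45.1% of all genes passed. Mcm2, Cenpa and Birc5 were among those higher (adjusted p = 0.000323, 0.0263 and 0.0453 by edgeR). Pold1, Dtl, Ccnb1 and Top2a were among those lower (adjusted p = 0.000252, 0.0112, 0.0133 and 0.00151 by edgeR). None of these had passed in the fit described above with all libraries. With sets of resembling libraries summed, 1 S phase member fell and 0 G2 and M members passed. In that fit 17.9% of all genes passed, out of the 13161 that its filter kept in place of 11905. Scaling to the total count alone moved the median change of all genes from -0.01 to -0.08, and 3 S phase and 6 G2 and M members were then lower and 0 higher. The share of all genes that passed with this scaling is not given here, so these counts have no background beside them.

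The spread between libraries of a group was larger than the change with calcitriol for nearly all members, in a fit without pairing that counts differences between sets of alike libraries as spread. The absolute change was above the SD within groups in 5 of 59 members (8.47%), which are the 5 called members, against 35.9% of all genes. The median absolute change was 0.08 on the log2 scale for members and 0.15 for all genes. The median SD within groups was 0.29 for S phase members, 0.21 for G2 and M members and 0.21 for all genes.

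**Figure D2:**
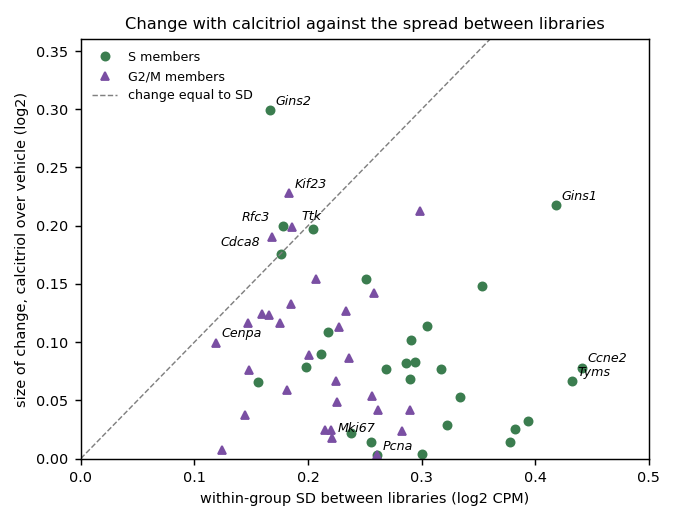
Absolute log2 change of each member with calcitriol (y axis) against its SD between libraries within groups in log2 CPM (x axis), with circles for S phase and triangles for G2 and M members. The 5 points above the dashed line of equality are Gins2, Kif23, Rfc3, Ttk and Cdca8, and the S phase genes Ccne2, Tyms and Gins1 lie farthest right.

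A phase score, the mean log2 CPM of the members of a phase relative to each gene's mean over the 22 libraries, was taken for every library. The S score ran from -0.29 to 0.39 in vehicle (median -0.038) and from -0.43 to 0.26 in calcitriol libraries (median -0.0064). The group means, 0.022 ± 0.24 (SD, n = 11) and -0.022 ± 0.26 (SD, n = 11), differed by -0.044, less than the pooled SD of 0.25. The G2 and M score ran from -0.14 to 0.24 in vehicle (median 0.045) and from -0.32 to 0.20 in calcitriol libraries (median -0.037). Its group means, 0.043 ± 0.13 (SD, n = 11) and -0.043 ± 0.20 (SD, n = 11), differed by -0.086, also less than the pooled SD of 0.17. Within a group the highest S score exceeded the lowest by 1.601-fold in vehicle and 1.62-fold in calcitriol libraries, and the G2 and M score by 1.31-fold and 1.43-fold.

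Most libraries that were high on one score were high on the other. In vehicle, replicates 1, 2 and 3 had S scores of -0.21, -0.29 and -0.20 and G2 and M scores of -0.13, -0.12 and -0.14. Vehicle replicates 5, 6 and 9 were the high libraries, with S scores of 0.31, 0.39 and 0.34 and G2 and M scores of 0.23, 0.24 and 0.10. In calcitriol, replicates 3 and 4 had the lowest S scores, -0.42 and -0.43, with G2 and M scores of -0.32 and -0.29. The order was not the same throughout, since vehicle replicate 8 had a higher G2 and M score than replicate 9 (0.13) but an S score of 0.069, and calcitriol replicate 9 led its group on the S score (0.26) but not on the G2 and M score (0.11). Both groups held libraries from the low to the high end. The S score minus the G2 and M score, which is above 0 where replication genes outweigh mitosis genes, ran from -0.17 to 0.24 in vehicle and from -0.14 to 0.15 in calcitriol libraries. Across the 22 libraries with group means removed, Pearson's r between the scores was 0.934, and it was 0.917 in vehicle and 0.962 in calcitriol libraries (n = 11 each). This is a description only, since libraries come in sets and share depth and scaling.

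**Figure D3:**
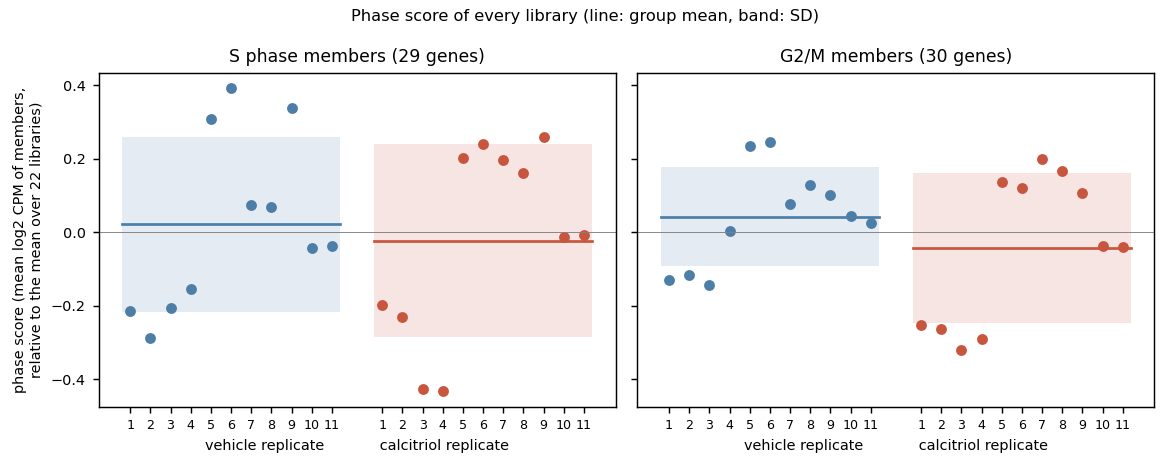
S score (left) and G2 and M score (right) of every library in log2 CPM relative to the mean over 22 libraries, with the group mean as a line and the SD as a band. Each group holds libraries well below and well above 0, and the group means differ by less than the pooled SD.

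Libraries of the same set mostly had similar scores. On genes outside the module, 5 pairs of libraries in each group were each other's best correlated partner, namely replicates 1 and 2, 3 and 4, 5 and 6, 7 and 8, and 10 and 11. Genes that follow the scores, such as Hist1h2ab (r = 0.949 with the G2 and M score), were among those used. The partners were therefore not chosen independently of the scores. Between such partners the S score differed by a median of 0.052 in vehicle and 0.033 in calcitriol libraries, against 0.28 and 0.27 over the 50 other pairs of a group. For the G2 and M score these gaps were 0.021 and 0.016 between partners and 0.16 and 0.24 over the other pairs. Partners were not always close, and vehicle replicates 3 and 4 differed by 0.15 on the G2 and M score. The labels do not say what the libraries of a set share.

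The members rose and fell together from library to library. After group means were removed, the median Pearson r between members was 0.798 over 406 pairs of S phase genes, 0.727 over 435 pairs of G2 and M genes and 0.735 over 870 pairs across the phases, with 22 libraries behind each r, against 0.00 over all pairs of genes tested. Of the variance within groups, a single component carried 72.2% among the members and 23.5% among all genes. Against the score of the other members of its phase, the flap nuclease Fen1 and the helicase subunits Mcm5 and Mcm7 had the highest r, 0.982 each. Mcm5 shows the size of this shared movement, from 186 CPM in calcitriol replicate 4 to 378 CPM in vehicle replicate 6, a 2.03-fold range, while its group medians were 264 CPM in vehicle and 274 CPM in calcitriol libraries.

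A few members followed their phase less closely or not at all. Rfc3, the member that rose, had an r of -0.329 with the S score of the others, and its highest values were in libraries with low S scores. Bub1 had an r of 0.282 with the G2 and M score, Cdt1 0.540 with the S score and both Plk1 and Aurkb 0.558 with the G2 and M score. Aurkb was also the steadiest member, with a 1.39-fold range over all 22 libraries. These members were picked after their values were seen.

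**Figure D4:**
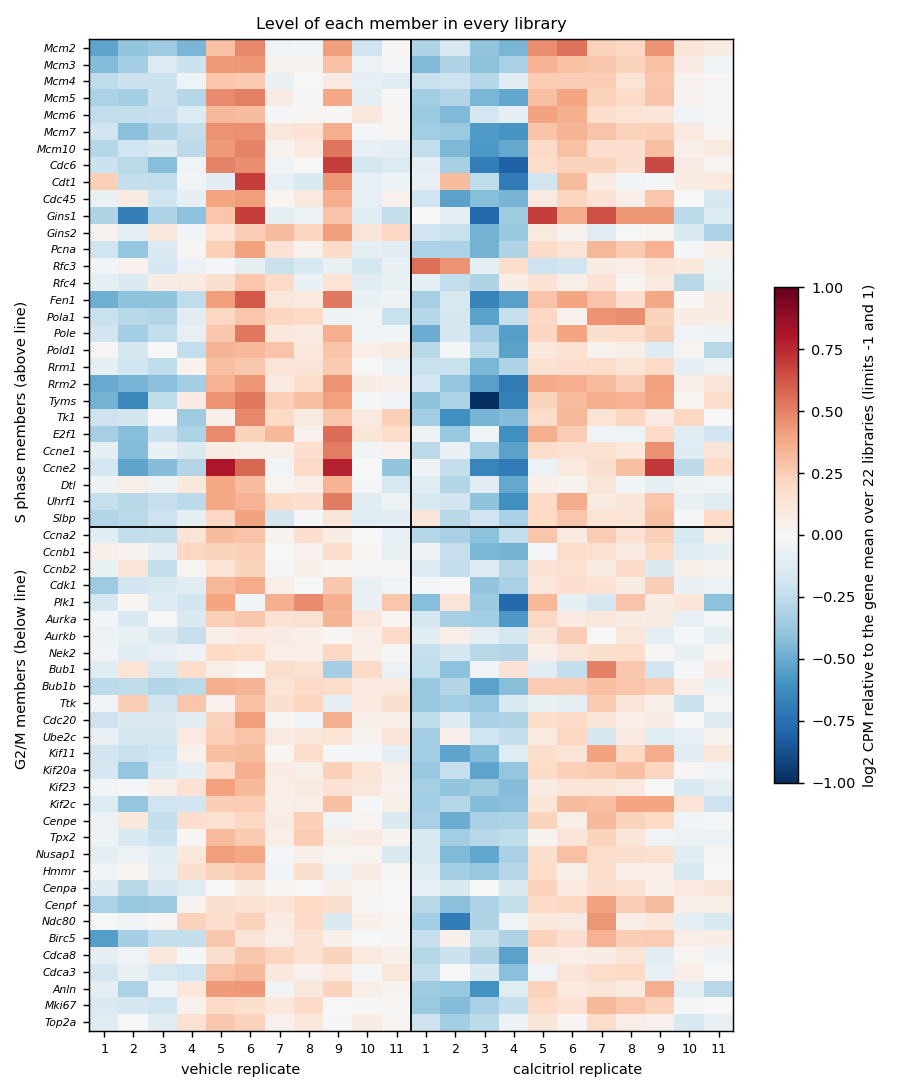
Level of each member (vertical axis, one line of cells per gene) in each library (horizontal axis, vehicle left and calcitriol right) as log2 CPM relative to the gene's mean over 22 libraries, on a scale from -1 to 1. Calcitriol replicates 3 and 4 are low and vehicle replicates 5, 6 and 9 are high across most genes, and Rfc3 stands out with high values in calcitriol replicates 1 and 2.

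Outside the module, 3 of the 7 genes that followed the scores most closely are on the lists of other cell cycle genes, namely Tfdp1, Ncapg2 and Stmn1. With the S score, r was 0.961 for Tfdp1, the dimer partner of E2F factors, 0.959 for Ncapg2, a condensin II subunit, and 0.957 for Stmn1, a microtubule regulator. Next came 2 identifiers without a symbol, ENSMUSG00000064168 at 0.957 and ENSMUSG00000096807 at 0.953. With the G2 and M score, Ncapg2 led at 0.952, followed by the histone H2A gene Hist1h2ab at 0.949, Stmn1 at 0.947, ENSMUSG00000064168 at 0.945 and the histone-binding protein gene Rbbp7 at 0.943. Histone genes have near-identical copies, so the reads of Hist1h2ab are uncertain. None of these 7 genes passed the test of calcitriol against vehicle, with Rbbp7 the nearest (change -0.22, adjusted p = 0.0511 by edgeR).

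Because the members move together within groups, their promoters were read for the short motifs of cell cycle genes, as known for E2F factors at S phase genes and for the CHR element and CCAAT boxes at G2 and M genes. Promoters of 50 of the 59 members were matched in the RefSeq table for GRCm38.p6, 53 promoters in all, each from 250 bases before to 50 bases after a transcript start, and both strands were searched. The called member Gins2 is among the 9 not matched. The letters TTTGGCGC, TTTCGCGC, TTTCCCGC or TTTGCCGC, taken here as E2F-type, were in 11 of 27 S phase promoters (40.7%) and 1 of 26 G2 and M promoters (3.85%), that of Cdk1. All 32851 promoters of the table held them in 2.26% of cases and those of genes tested in 4.17%. The CHR letters TTTGAA or TTCGAA were in 80.8% of G2 and M and 18.5% of S phase promoters, against 19.2% of all promoters and 14.2% of those of genes tested. A CCAAT box, the letters CCAAT, was in 80.8% of G2 and M and 63.0% of S phase promoters, against 37.4% of all. CHR and CCAAT letters occurred together in 69.2% of G2 and M promoters, 14.8% of S phase promoters and 7.52% of all. Some of the E2F-type letters overlap one another on opposite strands. These are matches of letters and not binding sites, and the members of a phase had been grouped by known timing and not by their promoters.

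The 4 upstream sequences that follow show these arrangements for members described above, each with the 150 bases before the start, 5′ to 3′ on the gene's strand, with E2F-type, CHR and CCAAT letters of either strand in capitals. Mcm6 (chr1:128359706-128359855, minus strand) has 3 E2F-type matches, of which the first 2 overlap, and 2 CCAAT boxes. Ccnb2 (chr9:70421555-70421704, minus strand) has 3 evenly spaced CCAAT boxes. Mki67 (chr7:135716380-135716529, minus strand) has 2 CHR matches, and Top2a (chr11:99024190-99024339, minus strand) has 3 CHR matches among its CCAAT boxes.
Mcm6: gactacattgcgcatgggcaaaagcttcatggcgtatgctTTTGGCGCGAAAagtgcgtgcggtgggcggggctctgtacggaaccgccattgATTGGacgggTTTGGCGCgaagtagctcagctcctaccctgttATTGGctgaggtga
Ccnb2: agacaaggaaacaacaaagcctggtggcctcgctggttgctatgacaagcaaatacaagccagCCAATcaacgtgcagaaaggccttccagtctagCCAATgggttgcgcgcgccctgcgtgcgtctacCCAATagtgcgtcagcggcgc
Mki67: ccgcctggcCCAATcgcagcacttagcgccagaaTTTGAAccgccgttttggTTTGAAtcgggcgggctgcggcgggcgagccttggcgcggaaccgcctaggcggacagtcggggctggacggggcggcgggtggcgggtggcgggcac
Top2a: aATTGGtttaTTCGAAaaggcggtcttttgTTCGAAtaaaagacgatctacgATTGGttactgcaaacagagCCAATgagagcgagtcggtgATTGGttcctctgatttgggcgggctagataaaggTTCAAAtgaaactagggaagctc

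For the other 4 called members motifs lie at the start itself, and the next windows give 8 bases before it and 22 from it, capitals as before. Kif23 (chr9:61946778-61946807, minus strand) has a CCAAT box and a CHR match side by side, and Ttk (chr9:83834681-83834710, plus strand) has a CHR match just inside the transcript. Rfc3 (chr5:151651187-151651216, minus strand), the S phase member that rose, has 2 E2F-type matches, the first of which is cut by the window's edge. Cdca8 (chr4:124936896-124936925, minus strand) has a CHR match between a pair of CCAAT boxes, the latter of which overlaps it, and both boxes run past the window.
Kif23: gATTGGcctgTTTGAAatgcgccgggcggg
Ttk: aggcagcggggaaatTTCAAAcgtgtttcc
Rfc3: TCGCGCtcGCGGGAAAactctactgtctaa
Cdca8: GGctaggctgtgcccgttgagTTTGAATTG

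Upstream of the members, regulators of G1 changed in both directions. Of 39 listed, 35 were tested, of which 6 rose and 4 fell, and these 10 of 35 are a share near the 31.5% of all genes. The D-type cyclin genes Ccnd2 and Ccnd3, whose products bring extracellular signals to the cell cycle, were lower in all 11 calcitriol libraries than in any vehicle library. Ccnd2 ran from 622 to 798 CPM in vehicle (median 687) and from 473 to 545 CPM in calcitriol libraries (median 501), with a change of -0.48 ± 0.05 (adjusted p = 1.51e-08 by edgeR). Ccnd3 ran from 261 to 336 CPM in vehicle (median 297) and from 176 to 239 CPM in calcitriol libraries (median 212), with a change of -0.49 ± 0.05 (adjusted p = 2.5e-08 by edgeR). The third D-type cyclin gene, Ccnd1, did not pass the filter on low counts. The pocket protein gene Rbl2, which encodes p130, a partner of repressive E2F factors, moved the other way and without overlap. It ran from 265 to 393 CPM in vehicle (median 328) and from 427 to 513 CPM in calcitriol libraries (median 465), with a change of 0.53 ± 0.05 (adjusted p = 1.07e-08 by edgeR). These 3 calls held in all 34 alternative settings, as did that of Rbl1 and Fbxw7.

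Rbl1, which encodes the related pocket protein p107, ran from 64.6 to 100.0 CPM in vehicle (median 77.9) and from 73.4 to 125 CPM in calcitriol libraries (median 104). Both ranges overlapped, with 7 calcitriol libraries above every vehicle library, and the change was 0.33 ± 0.08 (adjusted p = 0.00233 by edgeR). Fbxw7, the ubiquitin ligase subunit that removes cyclin E and Myc, ran from 73.1 to 94.2 CPM in vehicle (median 81.0) and from 85.7 to 116 CPM in calcitriol libraries (median 99.7), with 8 calcitriol libraries above every vehicle library. Its change was 0.29 ± 0.05 (adjusted p = 0.000108 by edgeR). Cdc25a, a phosphatase that activates Cdk2, fell by 0.33 ± 0.09 on the log2 scale (adjusted p = 0.00619 by edgeR), with 10 calcitriol libraries below every vehicle library and medians of 89.2 CPM in vehicle and 78.3 CPM in calcitriol libraries. With sets of libraries summed its call was lost (-0.34, adjusted p = 0.106). The Cdk inhibitor gene Cdkn1a, which encodes p21, ran from 53.6 to 94.7 CPM in vehicle (median 70.9) and from 49.5 to 71.8 CPM in calcitriol libraries (median 57.5), overlapping. It fell by 0.31 ± 0.10 (adjusted p = 0.0209 by edgeR), a call lost without a filter on low counts and with sets summed (adjusted p = 0.0599 and 0.0658). Cdkn1b, which encodes p27, had medians of 160 and 144 CPM and a change of -0.04 ± 0.09 (adjusted p = 0.781 by edgeR). The remaining 3 calls were increases, in the Myc antagonist Mxd4 (0.21), the Cdk4 inhibitor Cdkn2d (0.15) and the antiproliferative gene Btg2 (0.33).

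Myc, the growth-promoting transcription factor, missed the threshold narrowly. It ran from 49.6 to 104 CPM in vehicle (median 81.6) and from 32.8 to 100.2 CPM in calcitriol libraries (median 55.6). The groups overlapped, with 4 calcitriol libraries below every vehicle library, and the change was -0.48 ± 0.18 (adjusted p = 0.0517 by edgeR). It passed in 12 of 34 alternative settings, among them without the 4 libraries that stand apart (-0.60, adjusted p = 0.0146) and without calcitriol replicate 1, 2 or 3 or vehicle replicate 5 or 6 (adjusted p from 0.0156 to 0.0355). The highest adjusted p was 0.146, with sets of libraries summed.

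**Figure D5:**
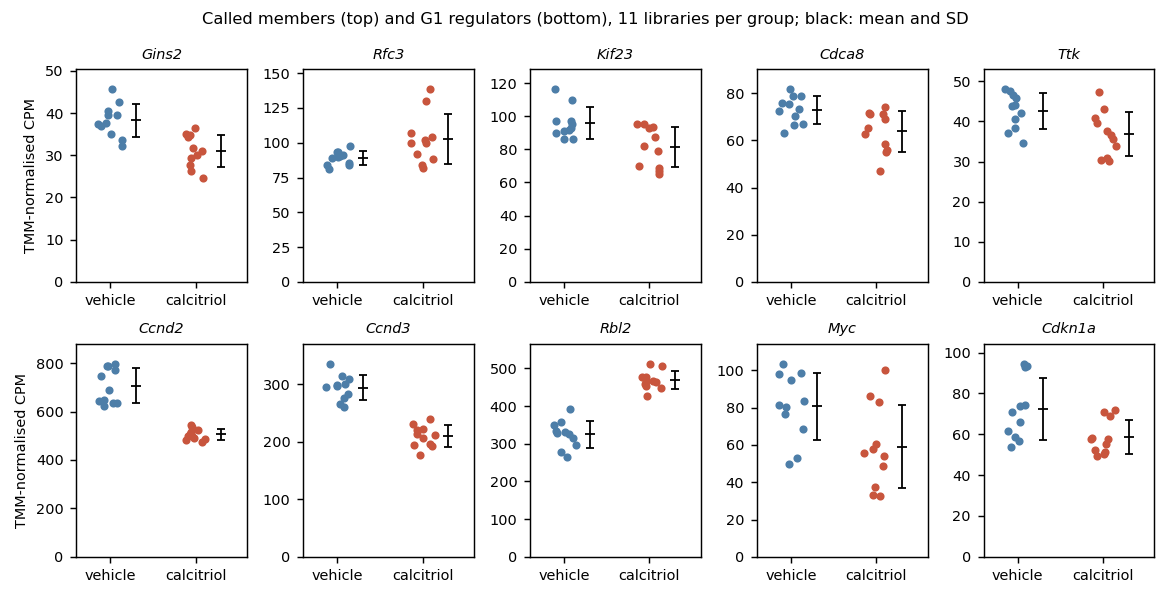
TMM-normalised CPM of the 5 called members (top) and of 5 G1 regulators (bottom) in every library, 11 per group, with the mean and SD in black and axes from 0. Ccnd2, Ccnd3 and Rbl2 are parted completely between the groups, whereas each called member overlaps.

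Of 46 other replication genes, all tested, 8 fell and 0 rose, a share close to that of all genes that fell (15.5%). Those that fell include 3 of the origin recognition complex, which marks origins for licensing. Orc1 ran from 35.4 to 70.5 CPM in vehicle (median 45.8) and from 24.7 to 46.2 CPM in calcitriol libraries (median 35.3), overlapping, with 6 calcitriol libraries below every vehicle library. Its change was -0.47 ± 0.12 (adjusted p = 0.00342 by edgeR). Orc6 and Orc4 had changes of -0.31 ± 0.09 and -0.24 ± 0.07 (adjusted p = 0.00554 and 0.00854 by edgeR). With sets of libraries summed, Orc1 and Orc6 missed the threshold (adjusted p = 0.0629 and 0.0757). Pold2, the second subunit of polymerase delta, ran from 35.5 to 59.9 CPM in vehicle (median 45.7) and from 26.7 to 43.9 CPM in calcitriol libraries (median 37.5), with a change of -0.34 ± 0.08 (adjusted p = 0.00233 by edgeR) that held in all 34 alternative settings. Rpa3, of the single-strand binding complex, and Rnaseh2a, of the nuclease that removes RNA from DNA, had changes of -0.23 ± 0.08 and -0.18 ± 0.06 (adjusted p = 0.0296 and 0.0260 by edgeR). The Rpa3 call was lost on leaving out calcitriol replicate 3 or 10 or vehicle replicate 4 or 6 (adjusted p from 0.0524 to 0.0612), and that of Rnaseh2a without vehicle replicate 6 or calcitriol replicate 11 (0.0504 and 0.0503). With sets of libraries summed the Rpa3 and Rnaseh2a calls were lost too (adjusted p = 0.0958 and 0.0923 by edgeR). The dUTPase gene Dut and the firing factor gene Ticrr, at -0.19 and -0.29, complete the 8. The median change of the 46 was -0.03.

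Of 74 other mitosis genes, 2 rose and 5 fell, fewer than the 31.5% of all genes that passed, with a median change of -0.05. Melk, a kinase of proliferating cells, showed the largest fall. It ran from 51.2 to 67.6 CPM in vehicle (median 59.4) and from 32.4 to 51.9 CPM in calcitriol libraries (median 42.8), so that 10 of 11 calcitriol libraries lay below every vehicle library, and the change was -0.44 ± 0.07 (adjusted p = 1.85e-05 by edgeR). Plk4, the kinase of centriole duplication, fell by 0.31 ± 0.07 (adjusted p = 0.00117 by edgeR), with medians of 75.8 and 62.9 CPM. Cks2, a small Cdk-binding protein, fell by 0.26 ± 0.06 (adjusted p = 0.00118 by edgeR), with medians of 55.8 and 47.4 CPM. The calls of Melk, Plk4 and Cks2 held in all 34 alternative settings. Pttg1, which encodes securin, fell by 0.18 ± 0.06 (adjusted p = 0.0140 by edgeR), and its call was lost without the 4 libraries that stand apart (-0.16, adjusted p = 0.0685).

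Dlgap5, of the spindle, fell by 0.14 ± 0.05 (adjusted p = 0.0397 by edgeR), and its call was lost when any of vehicle replicates 1, 2, 5 to 8 and 10 or calcitriol replicates 1 to 4, 10 and 11 was left out (adjusted p from 0.0513 to 0.0754). With sets of libraries summed it was lost too (adjusted p = 0.210 by edgeR). The phosphatase Cdc25b, which activates Cdk1, rose by 0.24 ± 0.09 (adjusted p = 0.0329 by edgeR), with 6 calcitriol libraries above every vehicle library. That call was lost on leaving out calcitriol replicate 3, 5 or 6, or else vehicle replicate 2 (adjusted p from 0.0543 to 0.0628). It was lost too with total count scaling and with sets of libraries summed (adjusted p = 0.125 and 0.0821 by edgeR). The other gene that rose was Depdc1a (0.28 ± 0.11), at medians of 7.30 and 9.24 CPM.

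Of 28 genes of the S phase checkpoint and of DNA repair, 27 were tested, and 2 rose and 2 fell, with a median change of -0.05. These calls are a smaller share than the 31.5% of all genes that passed. Msh6, a mismatch repair gene, rose by 0.18 ± 0.06 (adjusted p = 0.0156 by edgeR). The Msh6 call was lost with total count scaling and with sets summed (adjusted p = 0.172 and 0.111). Atr, the kinase that senses stalled forks, and Rbbp8, which trims broken ends, fell by 0.24 ± 0.09 and 0.21 ± 0.08 (adjusted p = 0.0475 and 0.0379 by edgeR). The Atr call was lost when any of vehicle replicates 2 to 4, 7, 8, 10 and 11 or calcitriol replicates 2, 5, 6 and 8 to 11 was left out (adjusted p from 0.0546 to 0.0910). That of Rbbp8 was lost without any of vehicle replicates 3 to 6 or calcitriol replicates 1, 2, 6, 10 and 11 (adjusted p from 0.0526 to 0.0770). With sets of libraries summed the Atr and Rbbp8 calls were lost too (adjusted p = 0.173 and 0.149 by edgeR).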

How the data were processed

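RNA from 22 libraries of mouse TH2 cells was sequenced after a stranded total RNA preparation with globin removal, per the labels' protocols. The authors deposited 1 table of raw counts, whole numbers per Ensembl gene that are not normalised, with 1 column per library and 0 columns unused here. STAR 2.7.10a, HTSeq 0.13.5 and the build GRCm38 are named in the submitters' processing notes, but their settings, such as the strand option, and the annotation used are not given in these sources. Symbols and coordinates came from GENCODE release M21 on the same build, with 259 identifiers left without a symbol. Promoter sequences came from the RefSeq table for GRCm38.p6.

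The filter was edgeR's filterByExpr (version 4.0.16 under R 4.3.3). It passed 11905 genes with at least 99.7% of each library's counts, and libraries were scaled with TMM factors. Calcitriol was compared with vehicle by edgeR's robust quasi-likelihood F test over all these genes, without covariates or pairing. P-values were adjusted by Benjamini-Hochberg, and 0.05 was the threshold. The test was checked on simulated counts drawn independently for each library, so that check does not cover sets of alike libraries. Members were read from that fit. Scores and correlations used log2 CPM with a prior count of 2 and were not tested. The depth of a library limits precision most for members near 10 CPM.

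Full values are given for called members, for the 3 highest and 3 lowest changes in each phase, for Mcm2, Pcna, E2f1, Ccne1, Ccne2, Mki67, Top2a, Ccnb1 and Cdk1, for up to 6 called genes with the smallest p in each further list, for Myc, Ccnd2, Ccnd3, Cdkn1a and Cdkn1b, and for the 5 genes outside the module that follow each score best. The members, lists and alternatives were chosen with earlier results of these data known. Alternatives were DESeq2 1.42.0, limma-voom with and without quality weights (limma 3.58.1), other scaling and filters (1 of them a mean of at least 5 CPM), non-robust dispersion, 4 surrogate variables from sva 3.50.0, sets of resembling libraries summed, 4 libraries left out, and each library left out in turn. The values of 1 gene of the checkpoint and repair list are not reported here.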

Additional observations from a re-analysis of the deposited data

How the results depend on the processing

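Each of the 44 phase scores moved by less than the pooled SD within groups when the median, a prior count of 0.5 or total count scaling was used. This SD was 0.25 for the S score and 0.17 for the G2 and M score. Counts of calls depended on how alike libraries were treated. With sets of libraries summed, 2357 of 13161 genes tested were called. These included 1 S phase member, 0 G2 and M members, 2 other replication genes, 4 other mitosis genes, 5 G1 regulators and 1 checkpoint or repair gene. With surrogate variables 5374 genes were called. Among them were 8 S phase members, 13 G2 and M members, 17 other replication, 27 other mitosis and 13 checkpoint or repair genes. Without the 4 libraries that stand apart the calls were 1 S phase member, 5 other replication, 4 other mitosis and 2 checkpoint or repair genes. There Kif23 and Cdca8 kept their calls and Ttk lost its call (adjusted p = 0.163 by edgeR). Limma-voom called 1 S phase member, total count scaling 6 G2 and M members and 12 other mitosis genes, quality weights 11 other mitosis genes, and no filter on low counts 1 G2 and M member, 5 other replication and 2 checkpoint or repair genes. How many of all genes passed in these settings, or without the 4 libraries, is not given here. These counts therefore have no background beside them. As each library was left out in turn, calls ran from 1 to 3 S phase members, 1 to 3 G2 and M members, 4 to 9 other replication genes, 4 to 10 other mitosis genes and 2 to 5 checkpoint or repair genes. Calls among all genes then ran from 3467 to 3806, against 3755 with all libraries. The cause of these shifts was not tested, although summing leaves fewer samples.

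Signs turned for genes whose change was near 0. Pcna changed by 0.047 with quality weights, 0.00048 with RLE factors, 0.0046 without a filter and 0.0061 with sets summed. With quality weights Ccne1 was at 0.019, Ccne2 at 0.023, Cdk1 at 0.0049 and Mki67 at 0.013. Mki67 was at 0.0049 with sets summed and 0.020 without the 4 libraries, where Cdkn1b was at 0.031, and Cenpf was at -0.013 with total count scaling. With single libraries left out, Pcna ran from -0.0395 to 0.0404, Ccne1 from -0.070 to 0.046, Ccne2 from -0.18 to 0.015, Cdk1 from -0.058 to 0.015 and Mki67 from -0.054 to 0.019. No paired analysis was possible because the labels give no numbers, mice or cultures that tie libraries of the groups together.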

Other observations

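Some genes moved against the module from library to library. They were looked for after the scores had been taken, so their r is given as a description over 22 libraries with group means removed. With the S score, r was -0.954 for Tet2, a dioxygenase that oxidises methylated DNA, -0.953 for Amz2 and -0.948 for the splicing regulator Rbm5. With the G2 and M score, r was -0.942 for Il17ra, a receptor chain for IL-17 cytokines, -0.940 for Tnip2, an inhibitor of NF-kB signalling, and -0.921 for the intermediate filament gene Vim. Rbm5 and Il17ra also rose with calcitriol, by 0.28 and 0.27 on the log2 scale (edgeR, adjusted p = 0.0145 and 0.0130), whereas Tet2 (-0.16, adjusted p = 0.237 by edgeR) and Vim (0.30, adjusted p = 0.265 by edgeR) did not pass.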
